A study of Mus musculus with 2 samples.

Results

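The nuclear genes for the subunits of the mitochondrial respiratory chain were examined in mouse embryonic stem (ES) cells with a constitutive knockout of Eed (Eed KO) and in the cells labelled as its control. The Eed protein belongs to the Polycomb repressive complex that methylates histone H3 at silent developmental genes. RNA of each was hybridized to 1 Affymetrix MOE430 2.0 array, so there were 2 arrays in all and no replicate. The labels do not give the site of the disruption, the parent line of either cell population or the use of feeder cells. Subunit genes were chosen by symbol alone, as those named Nduf, Sdh, Uqcr, Cox4 to Cox8 or Atp5 in the platform annotation, with assembly factors left out. This gave 164 probe sets for 81 genes, of 34945 probe sets with 1 gene symbol for 18193 genes. The array reads a transcript with sets of short probes, each set condensed to 1 signal. Where a gene had several sets, the brightest by mean log2 signal stood for it.

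The respiratory chain sits in the inner mitochondrial membrane. Complex I (NADH dehydrogenase) and complex II (succinate dehydrogenase) pass electrons to ubiquinone, complex III passes them to cytochrome c, and complex IV (cytochrome c oxidase) passes them to oxygen. Complexes I, III and IV pump protons out of the matrix, and complex V (ATP synthase) uses the gradient to make ATP. Pluripotent stem cells are known for a high rate of glycolysis beside this respiration. Complex II is encoded wholly in the nucleus. The other complexes also hold subunits encoded by mitochondrial DNA, which are not analysed here.

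Every difference below is between these 2 arrays, with no test between conditions, and the number of arrays limits its precision. In bulk RNA, fewer cells of a type and less RNA per cell cannot be told apart. A floor of 61.3, the 40th percentile of all signals, replaced lower signals before ratios were taken, and a gene counted as measured when it exceeded the floor on at least 1 array. The spread of a ratio was estimated from genes whose 2 brightest measured probe sets lay in the same signal range. This probe set SD, on the log2 scale, was 0.12 for genes over 100 times the floor, 0.21 for those at 10 to 100 times the floor and 0.47 below that. It covers the difference between probe sets of a gene on the same 2 arrays, isoforms included. Error shared by a whole array, such as its scaling, and variation between cultures are not covered. The 8 ES cell markers were all above the floor on both arrays, with a lowest signal of 4666 in the Eed KO and 3409 in the control, both for Esrrb. Of 12 fibroblast markers, 10 were measured, and in the Eed KO all 10 exceeded the control by 1.5-fold or more. Their summed signal was 11194 in the Eed KO and 3815 in the control, with Lum and Fap under the floor on both arrays. The part of these cells in the results below was not tested.

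The subunit genes differed little between the arrays. Of the 81 genes, 79 were measured, all of them on both arrays, and 59 of these were within 1.2-fold, against 35.0% of all measured genes. Of the subunit genes, only Cox7a1 was higher by 2-fold or more, and 0 were lower by as much. Among the 13794 genes measured on the arrays those shares were 10.8% higher and 3.27% lower. At 1.5-fold, 2 subunit genes were higher (Cox7a1 and Uqcrq) and 2 lower (Uqcrh and Cox6b2). The background at that size was 23.3% of all measured genes higher and 10.2% lower. Most subunit genes were bright, and bright genes differed less in general. At a mean signal of at least 10 times the floor there were 72 subunit genes, of which 2 were at least 1.5-fold higher and 2 lower. Of all 5781 genes in that range, 12.8% were higher and 13% lower by this size. At 2-fold the shares were 5.1% higher and 3.53% lower, against 1 and 0 of the 72.

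**Figure D1:**
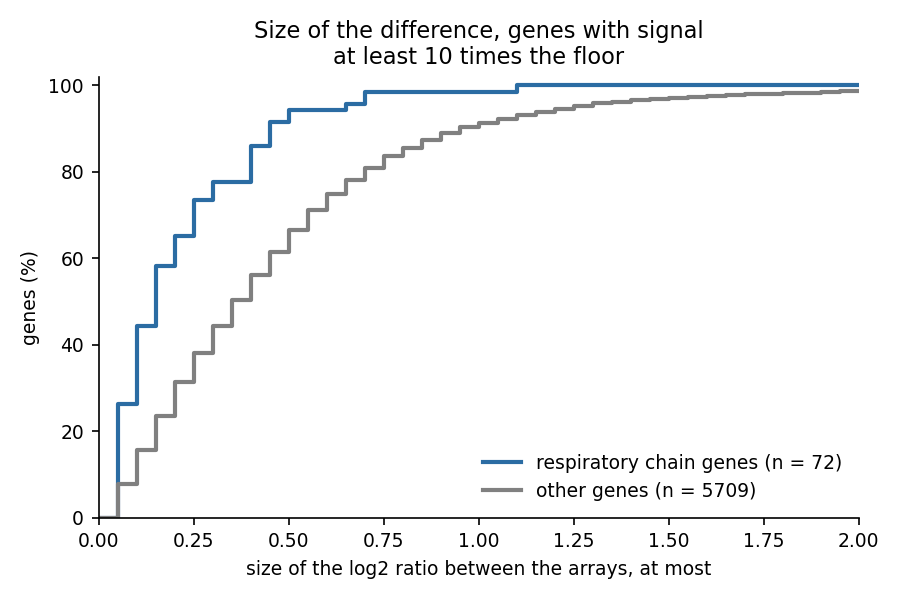
The share of genes (vertical axis, percent) whose log2 ratio between the arrays was at most the size on the horizontal axis, for 72 respiratory chain genes (blue) and 5709 other genes (grey) with a mean signal of at least 10 times the floor. The blue line lies above the grey one over most of its length, with a median size of 0.12 against 0.35.

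In this range the log2 ratios of the subunit genes had an SD of 0.26, against 0.63 for the other genes. Among the brightest genes, over 100 times the floor, 40 of 42 subunit genes and 85.7% of 580 other genes were within 1.5-fold. The SD was 0.23 for the subunit genes and 0.43 for the other genes. Over the 79 measured subunit genes the log2 ratio had a median of 0.04, beside 0.12 for the whole array. In the range of at least 10 times the floor it was 0.04, beside -0.05 for the other genes.

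**Figure D2:**
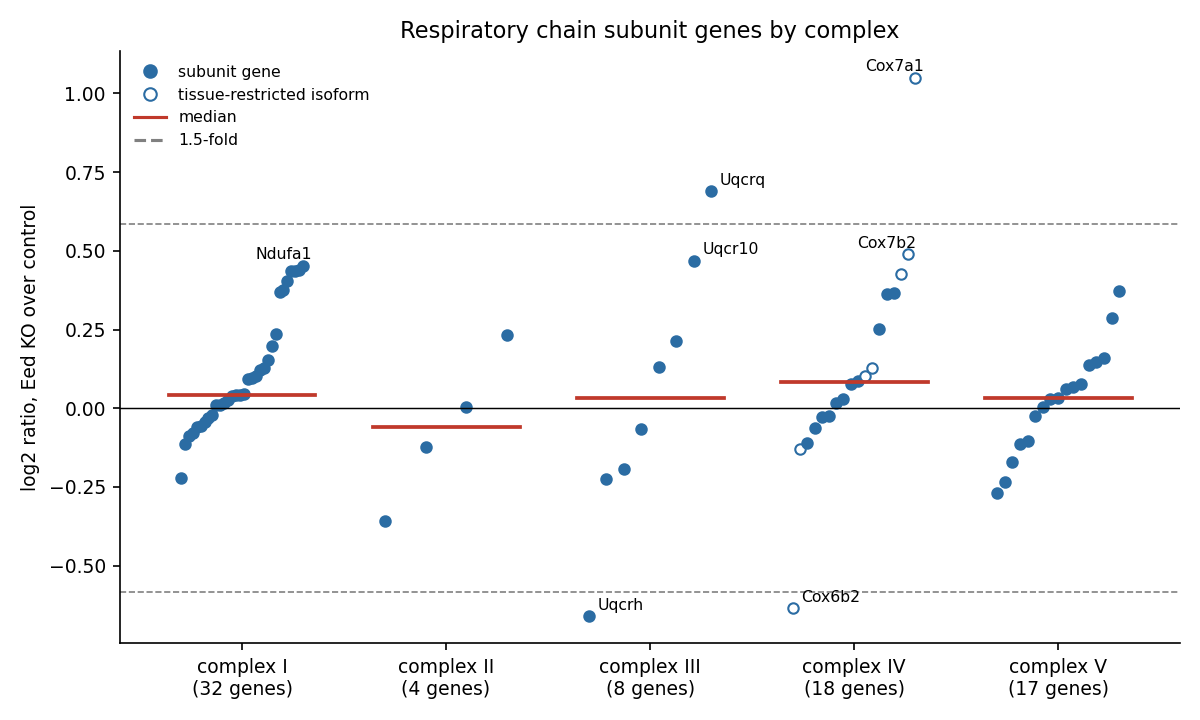
Log2 ratio of Eed KO over control (vertical axis) for the 79 measured subunit genes by complex, each point a gene represented by its brightest probe set. Red bars are medians, open points tissue-restricted isoforms and dashed lines 1.5-fold. The medians lie between -0.06 (complex II) and 0.08 (complex IV), and Cox7a1, Uqcrq, Uqcrh and Cox6b2 lie beyond 1.5-fold.

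RefSeq promoter windows of build GRCm38.p6, from 250 bases before to 50 after a start site, matched 66 of the 81 genes and gave 71 windows. They were searched on both strands for the core letters of 3 factors known as regulators of respiratory genes. These were GCGCA and GCGC with any 1 base between them for nuclear respiratory factor 1 (NRF1), CCGGAAG for the ETS family, which includes GABPA (also called NRF2), and AAGATGGCG for YY1. The NRF1 letters occurred in 22.5% of the subunit windows and 4.60% of all 32851 windows. The ETS letters occurred in 23.9% and 8.86%, and the YY1 letters in 8.45% and 1.40%. At least 1 of the 3 was found in 34 subunit windows (47.9%), against 13.6% of all windows, and in 0 windows did matches of different motifs overlap. A match is a description of the letters and not evidence of binding. The ratio of observed to expected CpG dinucleotides had a median of 0.82 in the 67 windows of ubiquitous subunits and 0.38 in all windows. The letters of all 3 motifs contain CG, and their shares were not compared with windows of like CpG content. The subunit genes lay on 19 chromosomes, with Ndufa1 and Ndufb11 on the X chromosome.

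By the brightest probe set of each gene, complex I was nearly level in its catalytic core. The 6 core genes measured (Ndufv1, Ndufv2, Ndufs1, Ndufs3, Ndufs7 and Ndufs8), which carry the flavin and most iron-sulfur clusters, had log2 ratios between -0.22 and 0.10, with a median of -0.05. The lowest was Ndufs1, the largest core subunit, with 3059 in the Eed KO against 3563 in the control. Ndufs8 has 6 probe sets, 1 of them at a log2 ratio of 0.42 at low signal (225.1 in the Eed KO, 168.8 in the control) and 1 at -0.34 (2079 and 2636). The brightest Ndufs8 probe set read 6465 in the Eed KO and 6287 in the control. The remaining ones had log2 ratios of -0.29, -0.25 and -0.01. The probe sets thus did not share a direction, and the only one clearly above 1 was dim. The second Ndufs7 probe set read 2450 in the Eed KO and 3090 in the control (log2 ratio -0.33).

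The 26 measured accessory subunits of complex I, which surround the core and are needed for its assembly and stability, had a median log2 ratio of 0.10. By the brightest probe set of each gene, the direction was above 1 for 21 and below 1 for 5, and none of the 26 reached 1.5-fold. As the mean over probe sets, Ndufa3, Ndufa7, Ndufb11 and Ndufc2 turned below 1. Their mean log2 ratios were -0.06, -0.17, -0.03 and -0.01. Of all 13794 measured genes, 8126 had a ratio above 1. Among genes other than the subunits, 2418 of 5129 in the middle signal range and 186 of 580 in the highest range did. Ndufa1, a membrane-arm subunit, read 11255 in the Eed KO and 8220 in the control (1.37-fold). Ndufa6 read 3896 in the Eed KO and 2873 in the control (1.36-fold). These were the highest ratios in the complex, each from 1 probe set, and as deposited both exceed the spread of a probe set. Under the alternative settings the log2 ratio was 0.15 to 0.59 for Ndufa1 and 0.13 to 0.54 for Ndufa6. The lowest value of Ndufa6 is within that spread. Ndufa12 followed with 8263 in the Eed KO and 6110 in the control, but its 4 probe sets disagreed. One read 5411 in the Eed KO and 6659 in the control (log2 ratio -0.30), and Ndufa12 has an annotated pseudogene, whose transcripts could not be told apart from its own. Ndufb9, with 2 measured probe sets, was higher in both, with a mean log2 ratio of 0.38 ± 0.03 (SD, 2 probe sets). At the other end Ndufb1 read 497.3 in the Eed KO and 537.5 in the control. Ndufb11 had probe sets at log2 ratios of -0.40, 0.03 and 0.28. Of the 5 probe sets of Ndufa7, 4 had log2 ratios between -0.12 and 0.16, and the other read 5758 in the Eed KO and 10800 in the control (1.88-fold lower). Ndufs4, an accessory subunit of the NADH-oxidizing arm, was above 1 in all 3 measured probe sets, at log2 ratios of 0.21, 0.23 and 1.04. The 1.04 came from a dim probe set (337.5 in the Eed KO, 164.0 in the control). Ndufs4 and Ndufa7 were named after their values were seen, as was Ndufb9. Ndufb4 was the 1 subunit of this complex under the floor, at 16.9 in the Eed KO and 12.6 in the control.

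Complex II links the tricarboxylic acid cycle to the chain, and its 4 genes stayed within 1.5-fold. Sdha, the flavoprotein that oxidizes succinate, read 5491 in the Eed KO and 5481 in the control. Its other 2 measured probe sets had log2 ratios of 0.28 and -0.37, the second at a signal near 100 (100.9 in the Eed KO, 130.5 in the control). Sdhb, the iron-sulfur subunit, read 6567 in the Eed KO and 5591 in the control (1.17-fold), from a single probe set. The membrane anchors bind ubiquinone. Sdhd read 3196 in the Eed KO and 4095 in the control (1.28-fold lower), and its second probe set also had a lower signal in the Eed KO (569.6 against 702.8). Sdhc split by probe set. The brighter one read 4150 in the Eed KO and 4523 in the control, and the other read 1809 in the Eed KO and 1059 in the control (1.71-fold higher). The direction of Sdhc was therefore not settled. The window before the Sdha start site (chr13:74350241-74350490, minus strand, bases from 250 upstream to the last base before the start) holds the NRF1 letters in 3 places, beginning at positions -98, -55 and -10 from the start. It is shown as the window of the succinate-oxidizing subunit, with matches in capitals.
Sdha: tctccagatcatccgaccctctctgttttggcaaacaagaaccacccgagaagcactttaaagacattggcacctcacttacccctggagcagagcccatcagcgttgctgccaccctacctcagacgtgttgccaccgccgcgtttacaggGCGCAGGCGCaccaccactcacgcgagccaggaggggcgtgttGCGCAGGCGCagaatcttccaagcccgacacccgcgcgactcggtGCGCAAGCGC

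Complex III had log2 ratios from -0.66 to 0.69 over 8 genes, with a median of 0.03. Their SD of 0.43 was the highest of the 5 complexes, followed by 0.34 in complex IV, whose range was wider (-0.63 to 1.05). By their brightest probe sets, the 3 core genes examined stayed within 1.2-fold, on both sides of 1, each beyond the probe set SD of its signal range. The core proteins Uqcrc1 and Uqcrc2 had log2 ratios of -0.19 and 0.22. The second Uqcrc2 probe set was within that SD, at a log2 ratio of 0.07. The Rieske iron-sulfur protein Uqcrfs1, which takes the electron from ubiquinol, read 4684 in the Eed KO and 5478 in the control (log2 ratio -0.23).

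The small subunits diverged. Uqcrh, the hinge protein that helps cytochrome c dock, read 6355 in the Eed KO and 10045 in the control (1.58-fold lower). Its other probe set read 3560 in the Eed KO and 9248 in the control (2.60-fold lower). Both probe sets were lower, and by different amounts, and Uqcrh has annotated pseudogenes whose transcripts could not be told apart from it. Uqcrq, which lies next to cytochrome b, read 9558 in the Eed KO and 5930 in the control (1.61-fold higher). Its 3 dim probe sets, at signals up to 150.9, also had ratios above 1, with log2 ratios of 0.18, 0.30 and 0.67 (for the last, the control signal of 42.8 was raised to the floor). Uqcr10, a small subunit of the membrane region, read 7920 in the Eed KO and 5722 in the control (1.38-fold) in its brightest probe set. The others read 2326 against 1125 and 1203 against 508.4, which is 2.07-fold and 2.37-fold higher in the Eed KO. All 3 Uqcr10 probe sets were thus higher in the Eed KO, by a mean log2 ratio of 0.92 ± 0.40 (SD, 3 probe sets). Uqcrb, which helps form the ubiquinone site, had a log2 ratio of 0.13, close to the probe set SD of its signal range. Uqcr11 had a log2 ratio of -0.06. Under the 10 alternative settings the log2 ratio stayed below 0 for Uqcrh (-1.38 to -0.52) and above 0 for Uqcrq (0.30 to 0.82) and Uqcr10 (0.16 to 1.24). The window before the Uqcrh start site (chr4:116075071-116075320, minus strand) is shown as that of the lowest ratio among the subunits, with the ETS letters in capitals, on the opposite strand and from position -10.
Uqcrh: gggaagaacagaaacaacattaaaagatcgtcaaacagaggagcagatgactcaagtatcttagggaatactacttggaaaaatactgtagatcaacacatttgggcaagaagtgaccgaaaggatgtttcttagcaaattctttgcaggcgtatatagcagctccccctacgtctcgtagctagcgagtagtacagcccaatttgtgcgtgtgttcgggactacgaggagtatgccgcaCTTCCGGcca

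**Figure D3:**
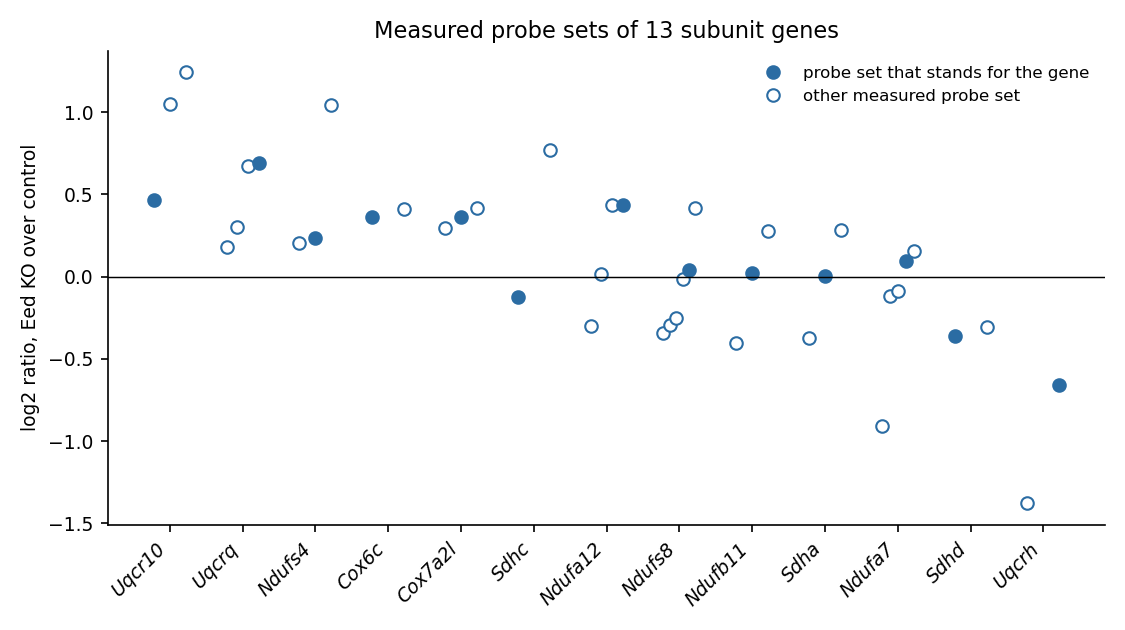
Log2 ratio of Eed KO over control (vertical axis) for each measured probe set of 13 subunit genes, picked to show agreement and disagreement, with the probe set that stands for the gene filled. All probe sets of Uqcr10 and Uqcrq lie above 0 and both of Uqcrh below it, while those of Ndufs8, Ndufb11, Ndufa12 and Sdha lie on both sides.

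Over all complexes, 45 genes had more than 1 measured probe set. In 27 of them every probe set lay on the same side of 1, and in 4 (Ndufa12, Ndufb11, Ndufs8 and Sdha) probe sets lay on opposite sides by at least 1.2-fold each way. Of the 164 probe sets, 83 can match more than 1 transcript by their suffix. By single probe sets, 4 of the 152 measured were higher by 2-fold or more and 1 was lower by as much. Of all 25167 measured probe sets with 1 gene symbol, 9.8% were higher and 3.47% lower by that size.

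The ubiquitous subunits of complex IV were level. The 10 genes measured had a median log2 ratio of 0.02, a range of -0.11 to 0.37 and 9 within 1.2-fold. Cox4i1, the regulatory subunit that binds ATP, read 20959 in the Eed KO and 21875 in the control. Cox6a1 read 20344 in the Eed KO and 19943 in the control, and Cox8a 7032 in the Eed KO and 7176 in the control. None of these differs by more than the spread of a probe set. Cox6c stood apart in both of its probe sets, at 21093 in the Eed KO and 16366 in the control (1.29-fold) for the brighter one, with a mean log2 ratio of 0.39 ± 0.03 (SD, 2 probe sets). Cox7a2l, a factor that joins complexes III and IV into supercomplexes, had 3 probe sets with a mean log2 ratio of 0.36 ± 0.06 (SD). Both were named after their values were seen. Ndufa4, named for complex I but a subunit of complex IV, read 6310 in the Eed KO and 5304 in the control (1.19-fold). The window before the Cox6a1 start site (chr5:115348959-115349208, minus strand) is shown as a ubiquitous subunit whose letters include both NRF1 and ETS. The NRF1 matches begin at positions -162 and -117 and the ETS match, on the opposite strand, at position -16, all in capitals.
Cox6a1: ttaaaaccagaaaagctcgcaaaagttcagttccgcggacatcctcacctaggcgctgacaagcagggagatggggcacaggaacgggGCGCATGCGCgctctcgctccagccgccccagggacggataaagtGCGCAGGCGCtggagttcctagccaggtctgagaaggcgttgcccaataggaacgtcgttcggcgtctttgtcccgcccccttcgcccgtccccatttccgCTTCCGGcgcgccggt

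The tissue-restricted isoforms of complex IV replace a ubiquitous subunit in a few tissues. They held the largest ratio among the subunits and one of the 2 lower calls. Cox7a1, the heart and skeletal muscle form of subunit 7a, read 1064 in the Eed KO and 513.9 in the control (2.07-fold higher, log2 ratio 1.05, 1 probe set). Its ubiquitous counterpart Cox7a2 read 19774 in the Eed KO and 20092 in the control. Cox7a1 was under 2-fold in 6 alternatives, and its log2 ratio stayed between 0.74 and 1.05. Markers of striated muscle were mostly near the floor or under it. Of 8, 7 were measured and 1 of them, Actc1, had a ratio above 1 (133.7 in the Eed KO, 79.0 in the control). Their summed signal was 1160 in the Eed KO and 1478 in the control, and 4 of the 8 were under the floor in the Eed KO. The fibroblast markers given above were higher in the same array. The part of muscle cells or fibroblasts in the Cox7a1 result was not tested.

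Cox6b2, the testis form of subunit 6b, read 1620 in the Eed KO and 2513 in the control (1.55-fold lower, 1 probe set), with log2 ratios of -0.94 to -0.57 under the alternatives. Its counterpart Cox6b1 read 15279 in the Eed KO and 16500 in the control, a log2 ratio of -0.11. Testis cytochrome c, Cyct, which is not a subunit, was also lower, at 1470 in the Eed KO and 3390 in the control (2.31-fold). The somatic form Cycs read 21410 in the Eed KO and 17715 in the control. Of 8 markers of testis and germ cells, 5 were measured, with ratios above 1 for 4 and below 1 for 1. Dazl differed by over 2-fold (773.0 in the Eed KO, 137.8 in the control). Ddx4 was the one below 1 (420.8 in the Eed KO, 639.7 in the control, 1.52-fold lower). The summed signal of the 8 was 2110 in the Eed KO and 1580 in the control, with the largest difference from Dazl. The other testis forms were dim. Cox8c read 390.7 in the Eed KO and 363.6 in the control, and Cox7b2 98.5 and 70.1 in the same order. Their log2 ratios were 0.10 and 0.49, against an SD of 0.47 for dim probe sets.

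The remaining isoforms were near the floor or under it. Cox4i2, the lung form, read 71.5 in the Eed KO and 65.4 in the control, and Cox6a2, a muscle form, 151.9 in the Eed KO and 166.3 in the control. Cox8b, another muscle form, did not reach the floor, at 7.9 in the Eed KO and 3.7 in the control. Ndufa4l2, a paralog of Ndufa4 known to be induced by low oxygen, read 183.8 in the Eed KO and 136.9 in the control (log2 ratio 0.43), within the spread of dim probe sets. Ndufa4l2 had no promoter window in the table used.

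**Figure D4:**
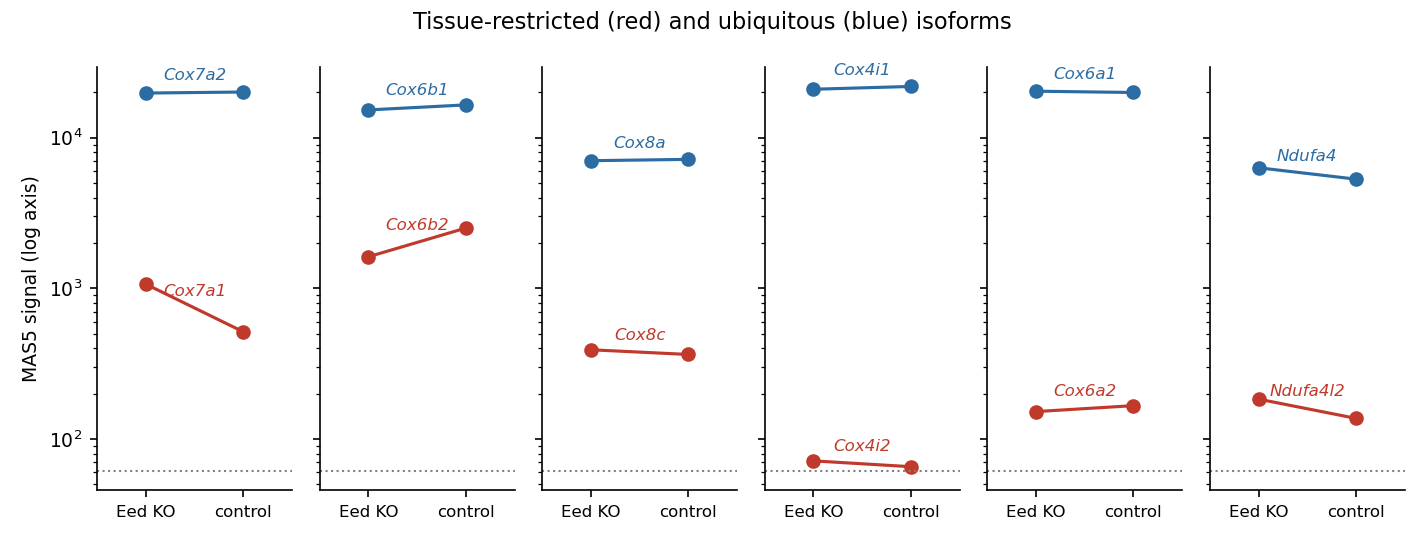
MAS5 signals (vertical log axis) of 6 tissue-restricted isoforms (red) and their ubiquitous counterparts (blue) in the Eed KO and the control, 1 array each, with the floor dotted. Lines are to be read within a gene, since levels of different probe sets are not comparable. The Eed KO point is above the control point for Cox7a1 (1064 and 513.9) and below it for Cox6b2 (1620 and 2513), while the lines of Cox7a2 and Cox6b1 are nearly flat.

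The windows of the isoform pairs on either side of 1 are shown to compare their sequence, each from 250 bases upstream to the last base before the start. They are Cox7a1 (chr7:30183921-30184170, plus strand), Cox7a2 (chr9:79759854-79760103, minus strand), Cox6b2 (chr7:4753095-4753344, minus strand) and Cox6b1 (chr7:30626115-30626364, minus strand). Capitals mark the ETS letters, found in Cox6b1 only, on the opposite strand.
Cox7a1: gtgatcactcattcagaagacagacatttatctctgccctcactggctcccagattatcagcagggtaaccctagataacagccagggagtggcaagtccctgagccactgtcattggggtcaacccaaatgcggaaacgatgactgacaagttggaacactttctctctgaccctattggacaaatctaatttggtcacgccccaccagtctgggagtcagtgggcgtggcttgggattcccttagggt
Cox7a2: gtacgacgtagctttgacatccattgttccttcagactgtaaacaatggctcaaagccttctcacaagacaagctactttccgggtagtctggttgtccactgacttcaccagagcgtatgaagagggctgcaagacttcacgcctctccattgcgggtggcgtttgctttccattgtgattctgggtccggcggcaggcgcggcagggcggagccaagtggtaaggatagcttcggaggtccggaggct
Cox6b2: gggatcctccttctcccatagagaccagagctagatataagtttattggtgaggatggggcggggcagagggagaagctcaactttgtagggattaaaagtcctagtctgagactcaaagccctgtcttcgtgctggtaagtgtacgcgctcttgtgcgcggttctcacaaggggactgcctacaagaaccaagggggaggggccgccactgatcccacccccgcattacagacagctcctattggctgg
Cox6b1: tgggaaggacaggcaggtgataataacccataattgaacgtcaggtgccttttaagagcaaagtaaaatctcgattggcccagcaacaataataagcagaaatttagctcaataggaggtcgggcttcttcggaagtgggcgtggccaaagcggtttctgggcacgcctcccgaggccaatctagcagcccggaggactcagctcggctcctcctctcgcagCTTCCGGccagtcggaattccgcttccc
The ratio of observed to expected CpG over the whole 300-base window was 0.33 for Cox7a1 and 0.83 for Cox7a2. It was 0.43 for Cox6b2 and 0.81 for Cox6b1. The 4 restricted isoforms with a window ranged from 0.11 to 0.56, beside a median of 0.38 over all windows. Of these 4, 0 held any of the 3 motifs, which occur in 13.6% of all windows. So few windows cannot be told apart from that share.

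ATP synthase was nearly level, with all 17 genes measured, 14 of them within 1.2-fold and a median log2 ratio of 0.03 (SD 0.17). In the F1 head, which makes ATP, the catalytic subunit Atp5b read 26029 in the Eed KO and 23674 in the control (1.10-fold). Atp5a1, its partner in the hexamer, read 18279 in the Eed KO and 20586 in the control (log2 ratio -0.17). By these probe sets both are slightly beyond the spread of a probe set and lie on opposite sides of 1. The other Atp5a1 probe sets, at log2 ratios of -0.10 and -0.09, were within that spread. The small Atp5e, part of the central stalk, had the lowest ratio of the complex, with 3857 in the Eed KO and 4650 in the control (log2 ratio -0.27).

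The c-ring that turns with the proton flow is encoded by 3 genes for the same mature protein. Atp5g1 read 11873 in the Eed KO and 9171 in the control (1.29-fold, log2 ratio 0.37). Its other probe set, near the floor, had a log2 ratio of 0.06. The log2 ratio of Atp5g1 was 0.06 to 0.51 under the 10 alternatives, and 0.22 as the mean over its probe sets, against 0.27 for Atp5h of the peripheral stalk. Atp5g3 read 22327 in the Eed KO and 22272 in the control, and Atp5g2 had a log2 ratio of -0.11. Of the 3, Atp5g1 lay beyond 1.2-fold and the others within it. All 4 genes of the peripheral stalk, which holds the head still, had ratios above 1, beside 186 of 580 other genes in the highest signal range. Atp5o and Atp5j, at log2 ratios of 0.06 and 0.07, were within the probe set SD of 0.12. The highest was Atp5h with 15665 in the Eed KO and 12838 in the control and a mean log2 ratio of 0.27 ± 0.03 (SD, 2 probe sets). After equalizing the medians of the arrays, Atp5h was at -0.02. Among the 5 small membrane subunits, Atp5j2 was lowest, with 12304 in the Eed KO and 14473 in the control and a mean log2 ratio of -0.23 ± 0.10 (SD, 3 probe sets).

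Other mitochondrial genes were compared by lists. The mitochondrial ribosome translates the subunits encoded by mitochondrial DNA. It had 76 measured genes with a median log2 ratio of -0.14, and 57 of them had a ratio below 1. Of all 13794 measured genes, 5666 had a ratio below 1. Among genes other than the subunits, 2711 of 5129 in the middle signal range and 394 of 580 in the highest range did. At 1.5-fold 9 of the 76 were lower and 1 higher. The lower share is close to that of the array, which was 10.2% of all measured genes and 13% of those at 10 times the floor or more. The higher count of 1 of 76 is below the share of the array. That share was 23.3% of all measured genes and 12.8% of those at 10 times the floor or more. Mrps27 was lowest, at 578.9 in the Eed KO and 1250 in the control (2.16-fold lower), followed by Mrpl35, Mrps12 and Mrpl18 with log2 ratios of -0.81 each. Of 42 measured assembly factors, which build the complexes, 3 were at least 1.5-fold higher and 2 lower, with a median log2 ratio of 0.15. Over all measured genes 23.3% were higher and 10.2% lower by this size, with a median of 0.12. Timmdc1, a complex I assembly factor, read 764.7 in the Eed KO and 305.3 in the control (2.50-fold). Ndufaf6 and Ecsit, both also complex I assembly factors, were lower. Ndufaf6 read 633.2 in the Eed KO and 1282 in the control, and Ecsit 731.7 in the Eed KO and 1464 in the control. Sco1, a copper chaperone for complex IV, read 176.5 in the Eed KO and 92.0 in the control, but its log2 ratio of 0.94 was as low as 0.07 among the alternatives.

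Of 17 measured genes of the tricarboxylic acid cycle and pyruvate dehydrogenase, 16 were within 1.5-fold, as were 66.5% of all measured genes. Among genes other than the subunits, 72.5% in the middle signal range and 85.7% in the highest were within this size. The median log2 ratio of the 17 genes was 0.13. Idh2, the mitochondrial NADP-dependent isocitrate dehydrogenase, was the exception, with 4252 in the Eed KO and 2292 in the control (1.86-fold, and as low as 0.14 on the log2 scale among the alternatives). Pdhb, a subunit of pyruvate dehydrogenase, read 7290 in the Eed KO and 10768 in the control (1.48-fold lower). Sucla2 and Suclg2, subunits of the ATP- and GTP-forming succinyl-CoA ligases, had log2 ratios of 0.31 and -0.30. Among 17 measured regulators of mitochondrial biogenesis and mitochondrial DNA, the median was -0.07. Nrf1, which encodes the factor whose letters are given above, read 801.4 in the Eed KO and 1308 in the control (1.63-fold lower). Pprc1, a coactivator of the PGC-1 family, read 1943 in the Eed KO and 3906 in the control (2.01-fold lower). Esrra, an orphan nuclear receptor that acts with PGC-1, read 506.4 in the Eed KO and 293.4 in the control (1.73-fold higher), and Polg, the mitochondrial DNA polymerase, had a log2 ratio of 0.56. Cyc1 and Ndufab1, subunits of complexes III and I that the symbol rule does not take, had log2 ratios of 0.07 and -0.06.

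The direction of most subunit genes depended on how the arrays were scaled. With the deposited scaling 52 of the 79 had a ratio above 1, and between 15 and 64 did under the 10 alternatives (63 to 79 genes measured). Of all 13794 measured genes, 8126 had a ratio above 1 with the deposited scaling. In the middle signal range 17 of 30 subunit genes and 2418 of 5129 other genes did. In the highest range 30 of 42 and 186 of 580 did, in the same order. With both arrays scaled to the same median, the whole array had a median log2 ratio of -0.16 in place of 0.12, and that of the subunit genes was -0.26. Set against other genes of at least 10 times the floor, the median of the subunit genes was higher by 0.04 to 0.19 on the log2 scale over the deposited scaling and all 10 alternatives. Their SD was 0.24 to 0.38 over these settings, beside 0.55 to 0.67 for the other genes.

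**Figure D5:**
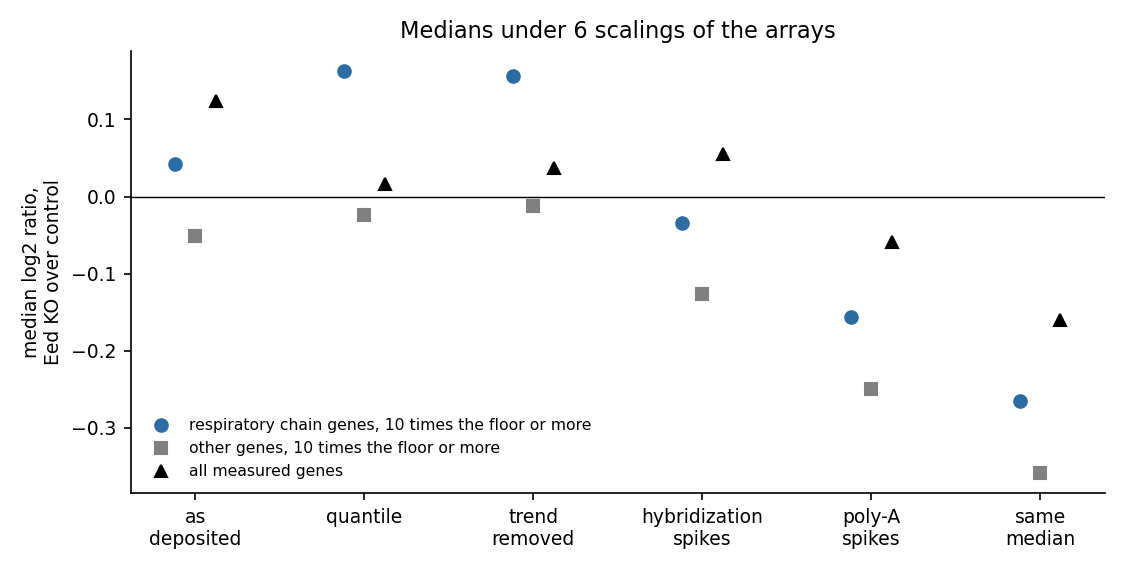
Median log2 ratio of Eed KO over control (vertical axis) under 6 scalings of the arrays, for respiratory chain genes (circles) and other genes (squares) with a mean signal of at least 10 times the floor, and for all measured genes (triangles). The circles lie above the squares in each scaling, and lie above 0 in 3 of the 6.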

How the data were processed

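Total RNA of 1 Eed KO and 1 control ES cell population was labelled with biotin and hybridized to 1 array each. The deposited values are linear-scale intensities, 1 per probe set, computed with MAS5 per the submitters' processing notes, with no version given in the sources used here. They were already scaled: on each array the 45101 signals had a mean of 500.00 once 2% was trimmed at each end. No detection calls were used here. Groups were taken from the sample titles.

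Gene names come from the platform annotation, whose old symbols were kept. The IDs of all 81 subunit genes matched the RefSeq gene table of GRCm38.p6. From the deposited intensities, floored log2 ratios (Eed KO over control) were computed in Python 3.11.15 with pandas 2.3.3 and statsmodels 0.14.6. With 1 array per group there was no test and no p-value. The procedure was tested on simulated data. Genes were named by a rule: those beyond 1.5-fold, the 2 highest and 2 lowest of each complex, the Sdh genes, the restricted isoforms and their counterparts, genes whose probe sets lay on opposite sides by 1.2-fold, and up to 4 genes of each other list. Subunits and lists were chosen with earlier results of these data known. Alternatives were quantile normalization, the same median, removal of an intensity trend by lowess (span 0.3), the hybridization or poly-A spikes, floors at the 25th or 60th percentile, a pseudocount, the mean over probe sets, leaving out probe sets with the suffixes _x_at, _s_at and _a_at, and calls at 1.5-fold or 3-fold. Promoter windows are RefSeq's, and restricted isoforms, as well as the role groups, were assigned by hand.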

Additional observations from a re-analysis of the deposited data

How the results depend on the processing

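With 1 array per group no library could be left out, and no alternative gives a variance between cultures. No paired analysis was possible because each group has 1 sample. Counts near a threshold and medians near 0 moved easily. Of 163 summary values recomputed, 113 stayed within 1.5 times the count, or for a median within 0.12, and 50 moved. The cause of these changes was not tested.

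The count of subunit genes at least 2-fold higher was 1 as deposited. It was 0 with quantile normalization, the trend removed, the hybridization spikes, the poly-A spikes, the same median, the pseudocount or calls at 3-fold, and 2 without probe sets of shared suffix or with calls at 1.5-fold. The count at least 2-fold lower was 0 as deposited, 1 as the mean over probe sets and 1 without shared suffixes (Uqcrh in both), and 2 with calls at 1.5-fold. At 1.5-fold the higher count of 2 was 1 with the poly-A spikes and with the same median and 4 after quantile normalization. The lower count of 2 was 0 after quantile normalization and with the trend removed. The 4 genes with probe sets on opposite sides were 2 with the hybridization spikes, 1 with the poly-A spikes, 1 with the same median and 0 without shared suffixes.

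With the poly-A spikes the medians were -0.16 for all subunits, and -0.15, -0.26, -0.16, -0.12 and -0.17 for complexes I to V. For the assembly factors, regulators, cytochrome c list, mitochondrial ribosome and tricarboxylic acid cycle they were -0.052, -0.27, -0.20, -0.34 and -0.072. With the same median they were -0.26 for all subunits, -0.26, -0.37, -0.27, -0.22 and -0.28 for complexes I to V, and -0.16, -0.38, -0.31, -0.45 and -0.18 for the lists. Quantile normalization gave 0.18 for complex I, 0.16 for V and 0.13 for the cytochrome c list. With the trend removed, III was 0.16, V 0.15 and the cytochrome c list 0.12. As the mean over probe sets, II was 0.10. Of 508 values of single named genes, 404 stayed within the probe set spread of their signal range, 104 moved and 0 of those beyond 1.5-fold changed sign. The genes whose sign turned under at least 1 alternative lay closer to 1 and include Sdha, Sdhb, Sdhc, Ndufa4 and Atp5h.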

Other observations

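Of the probe sets whose annotation gives several symbols, 9 name a subunit and were left out of the results above. The bright ones for Ndufb4 and its copies Ndufb4b and Ndufb4c had a signal of 7758 in the Eed KO against 6971 in the control, and of 6581 against 5372 in the same order. The probe set naming Ndufb4 alone stayed below the floor (16.9 in the Eed KO, 12.6 in the control). The shared Ndufs5 probe set read 5004 in the Eed KO and 3616 in the control (1.38-fold). The single-symbol Ndufs5 probe set read 4811 in the Eed KO and 3721 in the control (1.29-fold). The probe sets shared by Ndufa11 and Ndufa11b, and by Ndufs6 and Ndufs6b, had log2 ratios of 0.06 and -0.22 at high signal.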
